A study of Rattus norvegicus with 25 samples.

Results

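The genes described here encode the machinery that brings new secretory and membrane proteins into the endoplasmic reticulum and attaches N-linked glycans to them. They were chosen by gene symbol, with earlier results of these data known. They cover the signal recognition particle and its receptor, Sec61, Sec62 and Sec63, the translocon-associated protein (Ssr) complex, and Spcs1, Spcs2 and Spcs3 of signal peptidase. They also cover the Alg and Dpm enzymes with Dpagt1, some oligosaccharyltransferase subunits, and the glucosidases Mogs and Ganab with Uggt1. Other measured subunits of signal peptidase and oligosaccharyltransferase were left to the lists of neighbouring genes. The choice gave 46 genes with 71 probe sets, of 14217 genes and 31042 probe sets in all. Total RNA of 7 stably transfected lines was hybridized to 25 Affymetrix rat arrays. All derive from McArdle-RH7777, rat hepatoma cells able to secrete apoB-containing lipoproteins. The Sar1B:H79G group, which expresses constitutively active Sar1B, had 8 arrays from 2 lines, as did Sar1B. Sar1A had 4 arrays from 1 line, and the control lines with empty vector 5 arrays from 2 lines. Every line carried the tetracycline repressor vector, grew in blasticidin and Zeocin and received 1 µg/ml tetracycline over 24 h, and the Sar1 proteins were the human ones with a FLAG tag. Each line came from a picked clone, so that clone and construct are joined in its value. Per the study, recombinant Sar1 was most abundant in the Sar1A lines and least in the Sar1B lines, with Sar1B:H79G between them. The groups were thus not matched for dose, and the form and the amount of Sar1 cannot be told apart. The control lines made no recombinant Sar1, and the arrays of a line were averaged to 1 replicate. The RNA is that of a whole culture, so that fewer cells with a message and less of it per cell cannot be told apart.

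As background, a ribosome that begins a protein with a signal sequence is caught by the signal recognition particle, docked at its receptor, and passed to the Sec61 channel. There signal peptidase removes the signal sequence, and oligosaccharyltransferase moves a preassembled glycan from dolichol to asparagine residues of the growing chain. The glycan itself is built by the Alg enzymes, and glucosidases then trim it, so that lectin chaperones can bind. Hepatocytes secrete most plasma proteins through this route, and Sar1 is the small GTPase that starts the assembly of COPII vesicles, which carry finished proteins out of the same compartment.

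Markers of the labelled cell type were read on the log2 scale, where the array medians were 8.10 to 8.16. The 7 measured hepatocyte markers had group means between 10.41 and 13.95, the fibroblast, endothelial and leukocyte markers between 6.51 and 8.68, and of the bile duct epithelium markers Krt19 and Krt7 between 7.23 and 7.38. The third of these, the epithelial adhesion molecule Epcam, averaged 10.74 in Sar1B:H79G, 10.45 in Sar1B, 10.12 in Sar1A and 10.57 in control. Levels of different probe sets are not comparable with each other, and the files give no detection calls, so that these values do not show which messages were present. Apob, the structural protein of secreted lipoproteins, was lower in Sar1B:H79G, with a mean of 10.41, against 12.21 in Sar1B. The median difference between the 2 lines of a group over the 46 genes was 0.143 in Sar1B:H79G, 0.111 in Sar1B and 0.116 in control, and over all genes it was 0.0963, 0.0822 and 0.0931 in the same groups. The control arrays differed from all others in the prefix of their identifiers and in the digits that follow it, so that any difference tied to these identifiers cannot be told apart from lacking the recombinant Sar1 construct. Their 5′ probe sets were also weaker against the 3′ ones. For the spiked bacterial transcripts the difference was between -1.16 and -1.08 in the Sar1 lines, against -1.86 and -1.93 in the control lines. For beta-actin it was -0.71 and -0.63 in Sar1B:H79G, -0.50 and -0.49 in Sar1B, -0.61 in Sar1A, and -0.81 and -0.94 in control. The comparisons of Sar1B:H79G with Sar1B and with Sar1A lie within 1 set of these identifiers and lead the account for that reason.

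The letters of the promoters were set beside these genes because genes of this machinery are known targets of the endoplasmic reticulum stress factors Xbp1 and Atf6. RefSeq promoters of build GRCr8, from 250 bases before to 50 bases after the start, were matched for 43 of the 46 genes. The ER stress element, CCAAT and CCACG with 9 bases between, was searched on both strands and was in 0 of the 43, against 0.0765% of all genes, and its shorter relative, ATTGG and CCACG with 1 base between, was in 0 of the 43 against 0.0619%. These exact letters were in only 21 and 17 of 27457 genes, so that 0 of the 43 says little. TGACGTG, letters found in elements that Xbp1, Atf6 and CREB factors bind, was in 4 of the 43 (9.30%), against 2.02% of all genes. TGATGNAA, letters found in elements of Atf4 and C/EBP factors, was in 1 of the 43, Alg1, against 4.16%. No other of these motifs lay in the stretches shown. The stretches of 30 bases around the 4 TGACGTG matches are shown because they include Srpra, the gene with the largest change against control among the 46. Each is written 5′ to 3′ along the gene's strand, with the match, or its reverse complement CACGTCA, in capitals.
Srpra: ggctgctggtgTGACGTGtcccgcgcttgg
Ssr4: agggaaacggaCACGTCAgtgccgccagcg
Srp19: gtccttcaagcCACGTCActccgagacgga
Mogs: ggggccggaccTGACGTGtagggcgggatt
The Srpra stretch lies at chr8:41818212-41818241, the Ssr4 stretch at chrX:156675656-156675685, the Srp19 stretch at chr18:26205723-26205752 and the Mogs stretch at chr4:117179219-117179248, all on the plus strand. The matches ran from base 25 to 31 after the start in Srpra and from 10 to 16 after it in Ssr4, and from -154 to -148 in Srp19 and -105 to -99 in Mogs. A match is a description of letters and no evidence of binding. Of these 4 genes, Srpra and Ssr4 were higher and Mogs was lower in Sar1B:H79G than in Sar1B. Srp19 was not called there (log2 0.57, adjusted p = 0.12). Against control Srpra (1.66) and Srp19 (1.00) were higher, and Ssr4 (0.32, adjusted p = 0.051) and Mogs (-0.10, adjusted p = 0.36) were not called. Whether the matches bear on these values was not tested.

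A larger share of these genes than of all genes was higher in Sar1B:H79G than in Sar1B. The genes were chosen with earlier results of these data known, so the shares describe them and are no test of the set. Most of the 46 read well above the array medians, and the shares over all genes were not matched for signal. Of the 46, 11 were higher and 2 lower at an adjusted p under 0.05, which is 23.9% and 4.35%, where 4.90% of all genes were higher and 7.18% lower. The log2 fold change was above 0 for 33 of the 46, with a median of 0.19 against 0.01 over all genes. Against the single Sar1A line, 7 of the 46 were higher (15.2%) and 0 lower, where 1.98% of all genes were higher and 2.22% lower, and the median was 0.22 against 0.01. In that comparison 36 of the 46 fold changes were above 0, and at an unadjusted p under 0.05 limma had 18 higher and 4 lower. Of all 14217 genes, 2799 were under it in either direction. Fitted with only those 2 groups, 0 were called against Sar1A, with 17 higher and 4 lower at an unadjusted p under 0.05. The counts rest on few lines: without 1 line they lay between 4 and 11 higher and between 0 and 2 lower against Sar1B (4 and 1 without Sar1B:H79G line 2, 5 and 0 without Sar1B line 2), and between 2 and 10 higher against Sar1A. With array 2 of Sar1B line 2 left out, a choice made after its low values were seen, 10 were higher and 2 lower against Sar1B and 5 were higher against Sar1A.

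**Figure D1:**
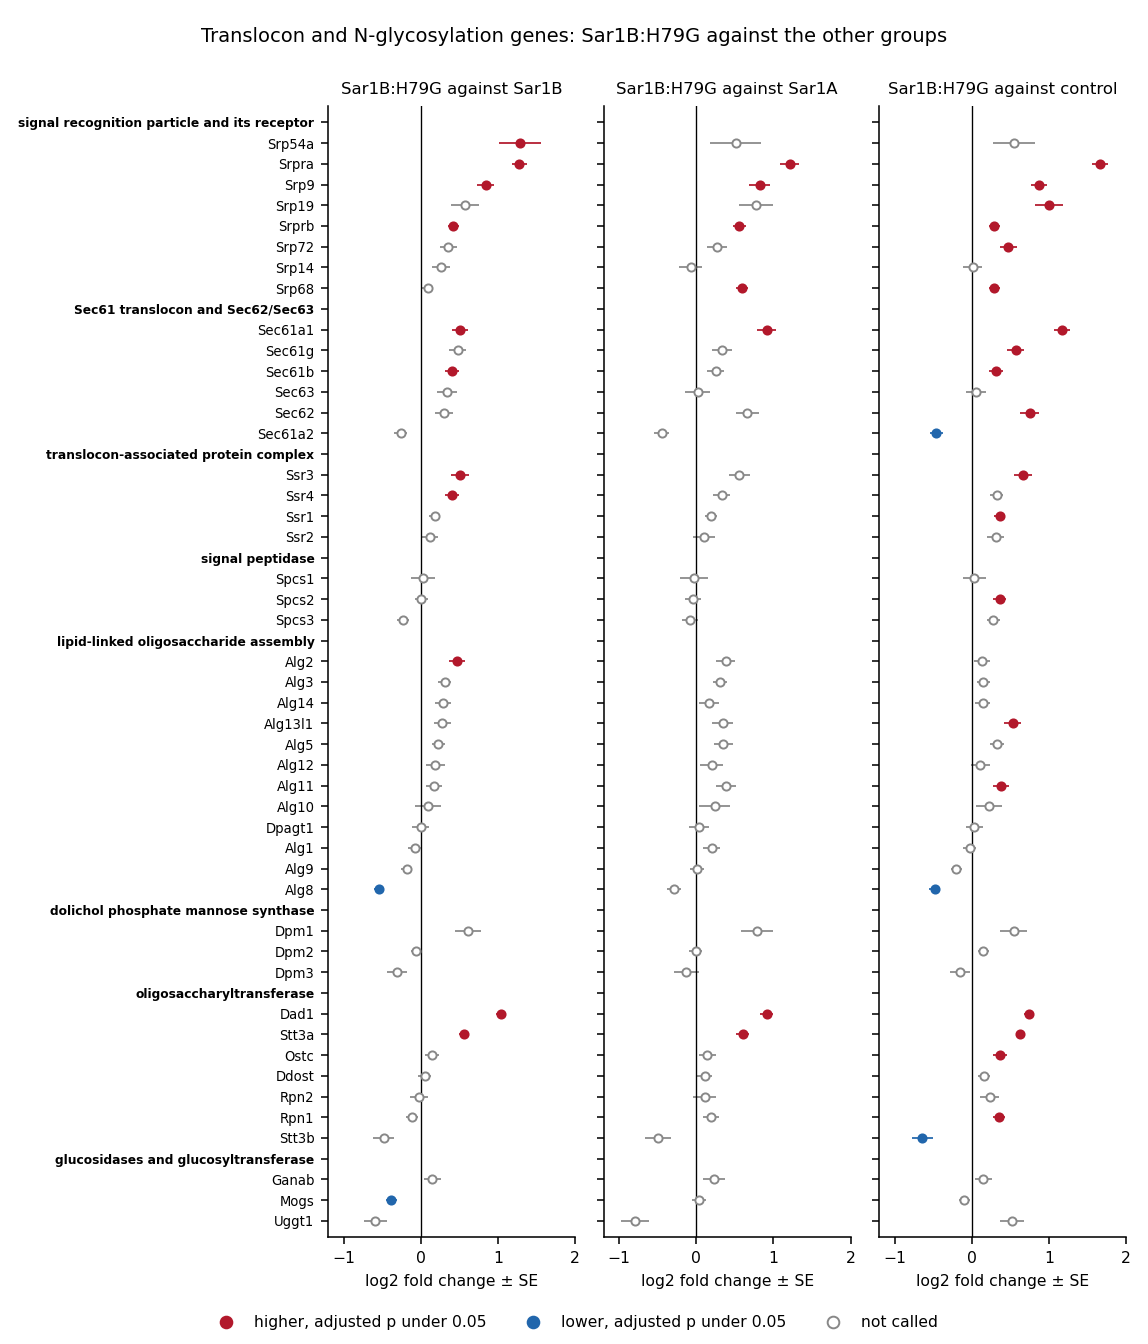
Log2 fold change of Sar1B:H79G against Sar1B, Sar1A and control for each of the 46 genes, grouped by role, with bars of 1 standard error; filled points have an adjusted p under 0.05. In the left panel the 11 genes called higher lie mostly among the targeting and translocon genes and in oligosaccharyltransferase, with Srp54a and Srpra farthest to the right, and Alg8 and Mogs are the 2 called lower.

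The targeting genes held the 2 largest fold changes of the 46 against Sar1B, those of Srp54a and Srpra. The signal recognition particle and its receptor had 8 measured genes. Of these, 4 were higher in Sar1B:H79G than in Sar1B (50%, beside 4.90% of all genes). Against Sar1A 4 were higher as well (50%, beside 1.98%), and none was lower in either comparison. The median log2 fold change over the 8 against Sar1B was 0.49. Srpra, the receptor subunit that binds the particle, had log2 signals of 11.80 and 12.03 in the Sar1B:H79G lines, against 10.63 and 10.65 in the Sar1B lines, 10.70 in the Sar1A line and 10.31 and 10.20 in the control lines. All 8 Sar1B:H79G arrays, between 11.70 and 12.09, lay above the highest of the other 17, at 10.84. The fold change was 2.43 against Sar1B (log2 1.28 ± 0.10 SE, adjusted p = 0.0027) and 2.32 against Sar1A (log2 1.21 ± 0.12, adjusted p = 0.0098). Srprb, the receptor subunit that anchors Srpra in the membrane, was also higher. Its lines read 11.52 and 11.65 in Sar1B:H79G, against 11.14 and 11.20 in Sar1B, 11.02 in Sar1A and 11.26 and 11.33 in control, a log2 fold change of 0.42 ± 0.07 against Sar1B (adjusted p = 0.025) and 0.56 ± 0.09 against Sar1A (adjusted p = 0.037).

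Of the 6 measured subunits of the particle, Srp9 and Srp54a were higher than in Sar1B, and no difference between subunits was tested. Srp9, which with Srp14 forms the Alu-domain heterodimer that slows translation, read 12.02 and 12.00 in the Sar1B:H79G lines, against 11.01 and 11.33 in Sar1B, 11.19 in Sar1A and 11.19 and 11.09 in control. The Sar1B:H79G arrays did not overlap those of any other group, and the log2 fold change was 0.84 ± 0.11 against Sar1B (adjusted p = 0.0099) and 0.82 ± 0.14 against Sar1A (adjusted p = 0.039). Its partner Srp14 read 12.26 and 12.51 in Sar1B:H79G, against 12.01 and 12.23 in Sar1B, 12.45 in Sar1A and 12.46 and 12.29 in control, and its arrays overlapped in each comparison (log2 fold change against Sar1B 0.26 ± 0.12, adjusted p = 0.30). Srp54a, the subunit that recognizes the signal sequence, had the largest fold change of the 46 against Sar1B, 2.44, but its order over the lines was another one. It read 12.44 and 12.38 in Sar1B:H79G, against 10.68 and 11.57 in the Sar1B lines, 11.90 in Sar1A and 11.95 and 11.77 in control, so that the Sar1B lines were the lowest and were 0.89 apart, the widest line difference of any of these genes in Sar1B. The call against Sar1B (log2 1.29 ± 0.27, adjusted p = 0.038) was not matched at this probe set by one against Sar1A (0.51 ± 0.33, adjusted p = 0.61) or against control (0.55 ± 0.27, adjusted p = 0.18). The 2 dimmer Srp54a probe sets differed from it. At one, Sar1B:H79G was higher than control (0.45 ± 0.09, adjusted p = 0.023). At the other, Sar1B was lower than control (-1.15 ± 0.19, adjusted p = 0.025). Srp68, which binds the particle's RNA together with Srp72, was higher than in Sar1A (log2 0.59 ± 0.08, adjusted p = 0.024) and against Sar1B its log2 fold change was 0.09 ± 0.07 (adjusted p = 0.59). Against Sar1A the calls of Srpra, Srp9, Srprb and Srp68 were lost under 1, 7, 9 and 6 of 16 alternatives.

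Of the calls among these targeting genes, those of Srpra and Srp9 against Sar1B held under every alternative run, with adjusted p-values up to 0.017 and 0.038. The call of Srprb was lost without either Sar1B line, either control line or Sar1B:H79G line 2 (adjusted p from 0.059 to 0.097), and that of Srp54a without either control or either Sar1B:H79G line (0.091 to 0.10).

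**Figure D2:**
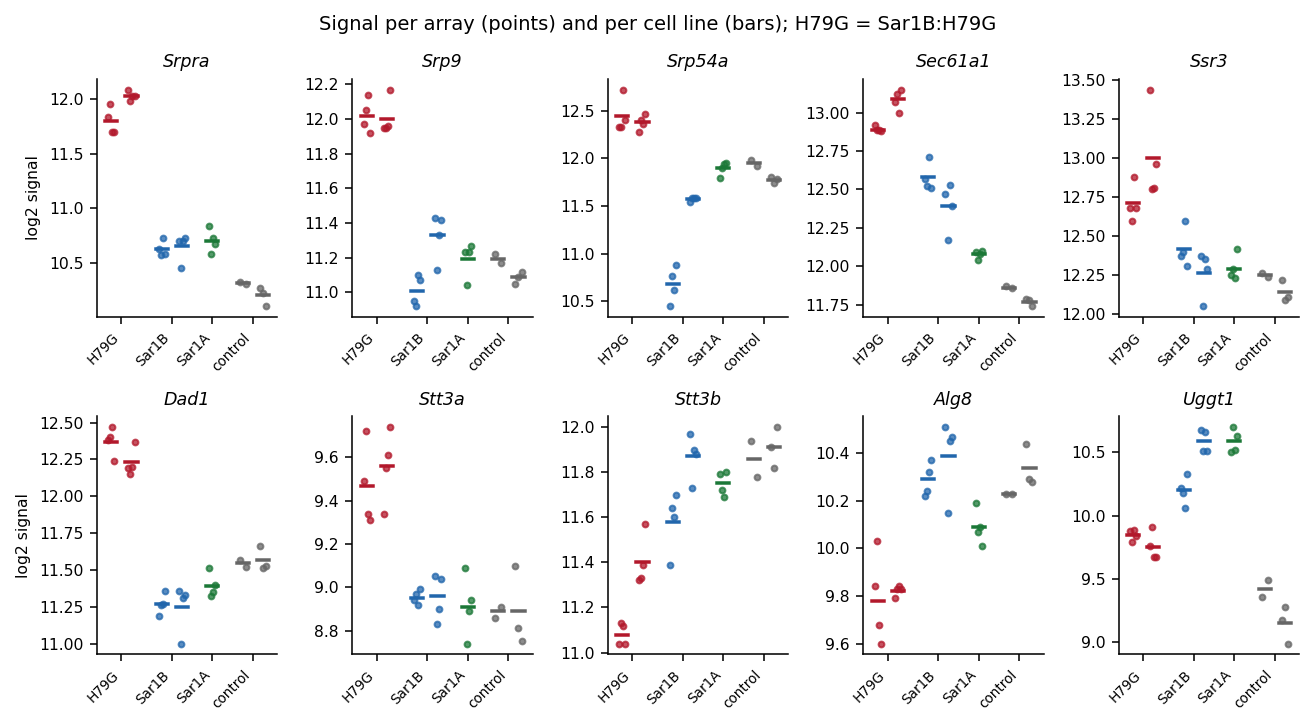
Log2 signal of 10 genes on every array (points) and the mean of each line (short bars), for 2 Sar1B:H79G, 2 Sar1B, 1 Sar1A and 2 control lines from left to right. Srpra, Srp9, Dad1 and Stt3a are high in both Sar1B:H79G lines and nowhere else, Srp54a is low in the Sar1B lines, Sec61a1 is lowest in the control lines, and Uggt1 is high in the Sar1B and Sar1A lines.

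Of the 6 genes of the Sec61 translocon with Sec62 and Sec63, 2 were higher in Sar1B:H79G than in Sar1B and 1 was higher than in Sar1A, with none lower. The shares were 33.3% and 16.7%, beside 4.90% and 1.98% of all genes. Sec61a1, which forms the pore, read 12.89 and 13.09 in Sar1B:H79G, against 12.58 and 12.39 in Sar1B, 12.08 in Sar1A and 11.86 and 11.77 in control. The groups followed each other in that order without overlap of their arrays, and the log2 fold change was 0.51 ± 0.10 against Sar1B (adjusted p = 0.033) and 0.91 ± 0.12 against Sar1A (adjusted p = 0.022). The call against Sar1A was lost under 6 of 16 alternatives. Sec61b, a small subunit, read 13.32 and 13.30 in Sar1B:H79G, against 12.91 and 12.88 in Sar1B, 13.06 in Sar1A and 13.11 and 12.89 in control, with a log2 fold change of 0.41 ± 0.09 against Sar1B (adjusted p = 0.039). Sec61g, the other small subunit, was close to it in size but not called, at 13.97 and 13.77 in Sar1B:H79G, against 13.38 and 13.40 in Sar1B (0.48 ± 0.11, adjusted p = 0.051). The paralog Sec61a2 had the only negative value of the 6, -0.26 ± 0.08 (adjusted p = 0.12). The call of Sec61a1 against Sar1B was lost without Sar1B line 2, Sar1B:H79G line 2 or either control line (adjusted p 0.14, 0.10, 0.082 and 0.082), and that of Sec61b without any 1 of the Sar1B or Sar1B:H79G lines (0.10 to 0.16).

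The translocon-associated protein complex sits beside the channel and helps some signal sequences through it. Of its 4 genes, 2 were higher in Sar1B:H79G than in Sar1B (50%, beside 4.90% of all genes) and none was called against Sar1A. Ssr3 read 12.71 and 13.00 in Sar1B:H79G, against 12.42 and 12.26 in Sar1B, 12.29 in Sar1A and 12.25 and 12.14 in control (log2 0.51 ± 0.12 against Sar1B, adjusted p = 0.049). Among the 11 genes called higher it was the one whose arrays touched, since the lowest Sar1B:H79G array and the highest Sar1B array both read 12.60. Ssr4 read 13.22 and 13.09 in Sar1B:H79G, against 12.80 and 12.69 in Sar1B, 12.83 in Sar1A and 12.92 and 12.74 in control (0.41 ± 0.09 against Sar1B, adjusted p = 0.047). Ssr2 was the brightest of the 4 and was not called, at 13.07 and 13.22 in Sar1B:H79G, against 13.10 and 12.95 in Sar1B (0.12 ± 0.11, adjusted p = 0.67). Both calls stood at the threshold: without array 2 of Sar1B line 2 each had an adjusted p of 0.051, and without the whole of that line 0.21.

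None of the 3 signal peptidase subunits among the 46 genes was called by limma against Sar1B or Sar1A, where 1 and 0 of them had an unadjusted p under 0.05. Spcs1 read 13.03 and 12.70 in Sar1B:H79G, against 12.67 and 13.01 in Sar1B (log2 fold change 0.03 ± 0.15, adjusted p = 0.96), so that its lines overlapped fully. The fold changes of the 3 subunits lay between -0.23 and 0.03 against Sar1B and between -0.08 and -0.03 against Sar1A. The subunits Sec11a and Sec11c were counted with the neighbouring genes and were not called against Sar1B (log2 0.11 ± 0.10 and 0.20 ± 0.09). Against control Sec11c was higher (0.52 ± 0.09, adjusted p = 0.011) and Sec11a was not called (-0.02 ± 0.10). Of the 3 subunits among the 46, Spcs2 was higher than control (log2 0.36, adjusted p = 0.03), which is 33.3%, beside 13.4% of all genes. That call was lost under 9 of 17 alternatives. Spcs1 (0.03) and Spcs3 (0.28, adjusted p = 0.061) were not called.

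The assembly of the lipid-linked oligosaccharide had calls in either direction. Of 12 genes, 1 was higher and 1 lower in Sar1B:H79G than in Sar1B. That is 8.33% each, near the 4.90% and 7.18% of all genes, so these counts do not set the 12 apart. None was called against Sar1A, although 11 of the 12 fold changes there were above 0. Alg2, a mannosyltransferase of the early, cytosolic steps, read 11.28 and 11.49 in Sar1B:H79G, against 11.01 and 10.81 in Sar1B, 11.00 in Sar1A and 11.25 and 11.26 in control (log2 0.47 ± 0.10 against Sar1B, adjusted p = 0.043). At this probe set the Sar1B:H79G lines were thus above the Sar1B lines, and no call was made against control (log2 0.13, adjusted p = 0.39). The dimmer Alg2 probe sets were higher than control, as given below. Alg8, the glucosyltransferase that adds one of the last glucoses in the lumen, read 9.78 and 9.82 in Sar1B:H79G, against 10.29 and 10.39 in Sar1B, 10.09 in Sar1A and 10.23 and 10.34 in control. It fell to 0.688 of the Sar1B signal (log2 -0.54 ± 0.07, adjusted p = 0.010), and against Sar1A the log2 fold change was -0.29 ± 0.09 (adjusted p = 0.19). Alg5, which makes the dolichol-linked glucose that Alg8 uses, read 11.50 and 11.63 in Sar1B:H79G, against 11.39 and 11.28 in Sar1B (0.23 ± 0.09, adjusted p = 0.24). Dpagt1, the enzyme of the first step and the target of tunicamycin, had fold changes of 0.00 ± 0.11 against Sar1B and 0.03 ± 0.13 against Sar1A. The Alg8 call was lost without Sar1B line 2 (adjusted p = 0.057), and that of Alg2 without either Sar1B or control line or Sar1B:H79G line 2 (0.051 to 0.18).

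At their brightest probe sets, the 3 genes of dolichol phosphate mannose synthase were not called in any of the 5 comparisons. A dimmer Dpm1 probe set was higher in Sar1B:H79G than in control (log2 0.25 ± 0.06, adjusted p = 0.038). Dpm3, which holds the catalytic subunit at the membrane, read 11.11 and 11.41 in Sar1B:H79G, against 11.49 and 11.65 in Sar1B (log2 -0.31 ± 0.13, adjusted p = 0.25). Dpm1, the catalytic subunit, read 10.62 and 11.17 in Sar1B:H79G, against 10.33 and 10.25 in Sar1B, and its lines were 0.55 apart in Sar1B:H79G, the widest difference of the 46 genes in that group (0.61 ± 0.17, adjusted p = 0.089).

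Of the 7 oligosaccharyltransferase genes among the 46, 2 were higher in Sar1B:H79G than in Sar1B and than in Sar1A, with none lower. That is 28.6% in each comparison, beside 4.90% and 1.98% of all genes. Dad1, a small subunit that the complex needs for its stability, read 12.37 and 12.23 in Sar1B:H79G, against 11.27 and 11.25 in Sar1B, 11.39 in Sar1A and 11.55 and 11.57 in control. Its 8 Sar1B:H79G arrays, between 12.15 and 12.47, lay above the highest of the others, at 11.66. The fold change was 2.06 against Sar1B (log2 1.04 ± 0.07, adjusted p = 0.0025) and 1.87 against Sar1A (log2 0.91 ± 0.09, adjusted p = 0.0098). Stt3a, the catalytic subunit of the form that works beside the channel during translation, read 9.47 and 9.56 in Sar1B:H79G, against 8.95 and 8.96 in Sar1B, 8.91 in Sar1A and 8.89 and 8.89 in control (log2 0.56 ± 0.06 against Sar1B, adjusted p = 0.0066; 0.60 ± 0.08 against Sar1A, adjusted p = 0.020). Stt3b, the catalytic subunit of the form that also works after translation, was named after its values were seen. It read 11.08 and 11.40 in Sar1B:H79G, against 11.58 and 11.87 in Sar1B, 11.75 in Sar1A and 11.86 and 11.91 in control, with fold changes of -0.48 ± 0.14 against Sar1B (adjusted p = 0.092) and -0.50 ± 0.17 against Sar1A (adjusted p = 0.22). The shared subunit Rpn2 read 13.58 and 13.36 in Sar1B:H79G, against 13.56 and 13.42 in Sar1B (-0.02 ± 0.12, adjusted p = 0.97). The calls of Dad1 and Stt3a against Sar1B held under every alternative run, with adjusted p-values up to 0.016 and 0.037. Against Sar1A that of Stt3a was lost without either control line or Sar1B:H79G line 2 (0.065, 0.065 and 0.057).

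Among the enzymes that act on the transferred glycan, 1 of 3 was lower in Sar1B:H79G than in Sar1B (33.3%, beside 7.18% of all genes). Mogs, the glucosidase that removes the outermost glucose, read 10.68 and 10.64 in Sar1B:H79G, against 10.98 and 11.10 in Sar1B, 10.62 in Sar1A and 10.71 and 10.81 in control (log2 -0.38 ± 0.07 against Sar1B, adjusted p = 0.033). The Sar1B lines were the ones that stood apart, and the fold change against Sar1A was 0.04 ± 0.09 (adjusted p = 0.97). Ganab, the catalytic subunit of the next glucosidase, read 11.33 and 11.27 in Sar1B:H79G, against 11.00 and 11.31 in Sar1B (0.15 ± 0.11, adjusted p = 0.58). Uggt1, which puts a glucose back on glycoproteins that have not folded, read 9.85 and 9.75 in Sar1B:H79G, against 10.20 and 10.59 in Sar1B and 10.59 in Sar1A. Its arrays did not overlap, and it missed the threshold in each comparison (-0.59 ± 0.15, adjusted p = 0.070 against Sar1B; -0.79 ± 0.18, adjusted p = 0.094 against Sar1A). The Mogs call was lost without any 1 of the 6 Sar1B:H79G, Sar1B and control lines (0.057 to 0.16).

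Against control the counts were larger, and so was the background. Of the 46 genes, 19 were higher in Sar1B:H79G (41.3%) and 3 lower (6.52%), where 13.4% of all genes were higher and 10.6% lower, and the median log2 fold change was 0.30 against 0.02. These values share the Sar1B:H79G lines with the comparisons above. Srpra had a fold change of 3.17 (log2 1.66 ± 0.10, adjusted p = 0.00093), the largest of the 46, and Sec61a1 one of 2.26 (log2 1.17 ± 0.10, adjusted p = 0.0018). Dad1 (log2 0.74 ± 0.07), Stt3a (0.63 ± 0.06), Srp9 (0.87 ± 0.11) and Srprb (0.29 ± 0.07) were called here as well. The Srprb call (adjusted p = 0.041) was lost under 12 of 17 alternatives, among them quantile normalization (adjusted p = 0.41). Srp19, a particle subunit that helps its RNA to fold, was higher at 11.34 and 11.86, against 10.48 and 10.71 in control (log2 1.00 ± 0.18, adjusted p = 0.014). Lower were Sec61a2 (-0.46 ± 0.08, adjusted p = 0.014), Alg8 (-0.48 ± 0.07, adjusted p = 0.0085) and Stt3b (-0.64 ± 0.14, adjusted p = 0.024). With quantile normalization in place of the deposited scaling, 9 were higher and 4 lower and the median was 0.08, and without control line 2, 4 were higher and 0 lower; against Sar1B quantile normalization left 10 higher and 2 lower.

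**Figure D3:**
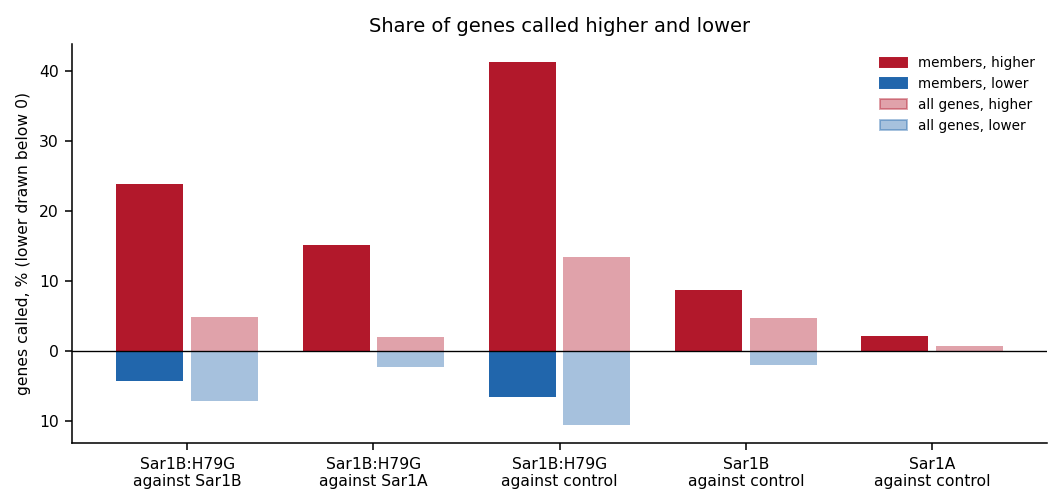
Percent of the 46 genes (dark bars) and of all 14217 genes (pale bars) called higher (above 0) and lower (below 0) in each of the 5 comparisons. The share of these genes called higher is 23.9% against a background of 4.90% for Sar1B:H79G against Sar1B, and 2.17% against 0.661% for Sar1A against control, which is a single gene.

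Overexpression of the normal proteins was set against control in the same way. In Sar1B, 4 of the 46 genes were higher than in control (8.70%) and 0 lower, where 4.72% of all genes were higher and 2.01% lower. In Sar1A, 1 was higher (2.17%) and 0 lower, where 0.661% and 0.204% of all genes were. At an unadjusted p under 0.05 limma had 12 higher and 4 lower in Sar1B, and 4 higher and 2 lower in Sar1A. Of all 14217 genes, 3869 and 2817 were under it in either direction. Uggt1 was the gene called in Sar1A, and it was also higher in Sar1B: its lines read 10.20 and 10.59 in Sar1B and 10.59 in Sar1A, against 9.42 and 9.15 in control, which gave fold changes of 2.15 (log2 1.11 ± 0.15, adjusted p = 0.018) and 2.46 (log2 1.30 ± 0.18, adjusted p = 0.044). In Sar1B:H79G it lay between those groups and control (log2 0.52 ± 0.15 against control, adjusted p = 0.056). Sec61a1 (log2 0.67 ± 0.10, adjusted p = 0.021) was higher in Sar1B, as were the signal peptidase subunit Spcs3 (0.50 ± 0.08, adjusted p = 0.026) and Rpn1, the oligosaccharyltransferase subunit next to the channel (0.45 ± 0.08, adjusted p = 0.034). Spcs3 read 12.55 and 12.68 in Sar1B, against 12.15 and 12.07 in control, and Rpn1 read 13.41 and 13.31 in Sar1B, against 13.00 and 12.82 in control. Without control line 2 none of the 5 calls remained, without Sar1B line 2 none of the 4 in Sar1B did, and quantile normalization gave 2 higher and 5 lower in Sar1B.

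Probe sets of 1 gene were compared where it had several, which was so for 14 of the 46. They were never called in opposite directions, but differed in being called for 5 genes against Sar1B and for 10 against control. Those against Sar1B were Alg2, Sec61a1, Srprb, Ssr3 and Stt3a. Against Sar1B, 3 of the 4 Alg2 probe sets were higher (log2 0.46 to 0.56) and the dimmest was at 0.36 ± 0.12 (adjusted p = 0.15). All 3 Srp54a probe sets were higher (0.66 to 1.36), as were the 2 brighter ones of 3 for Sec61a1 (0.48 and 0.51). The other Stt3a probe set, at 8.57 and 8.61 in Sar1B:H79G, against 8.37 and 8.43 in Sar1B, missed the threshold (0.19 ± 0.06, adjusted p = 0.13). Against control the probe sets of a gene lay further apart. The brightest Alg2 probe set was at 0.13 ± 0.10 (adjusted p = 0.39) while the dimmer ones were higher by 0.76, 0.92 and 1.00, and the brightest Sec63 probe set was at 0.05 ± 0.13 while 2 dimmer ones were higher by 0.86 and 1.07. The weaker 5′ signal of the control arrays given above stands beside these differences, and its part in them was not tested, since the position of each probe set along its transcript was not used here.

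**Figure D4:**
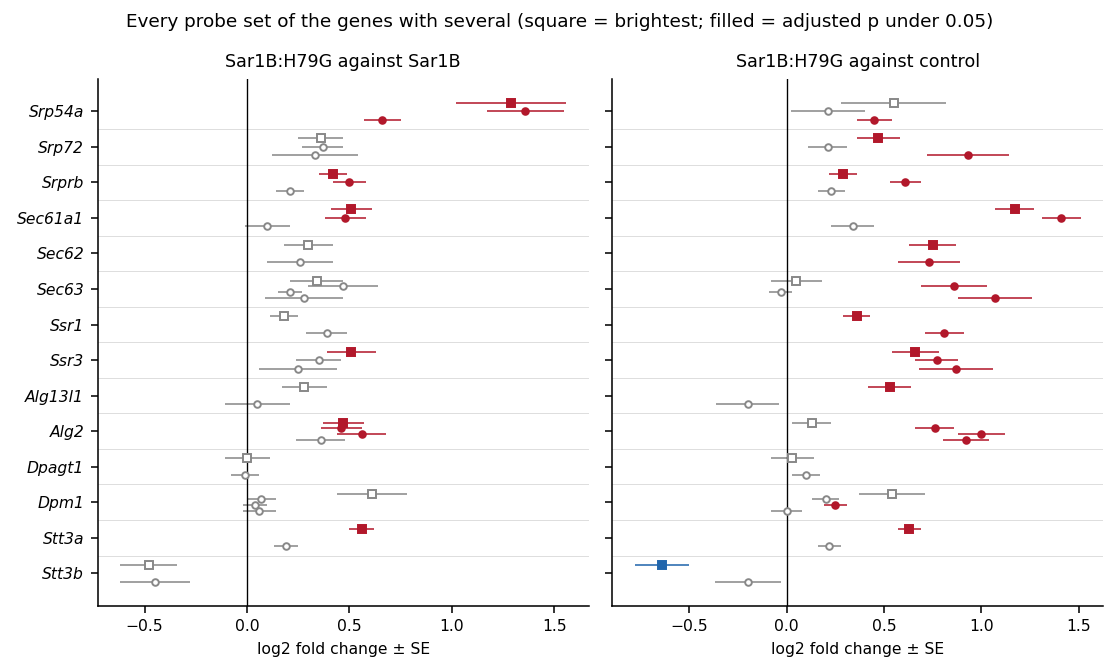
Log2 fold change with 1 standard error for each probe set of the 14 genes that had several, against Sar1B (left) and against control (right); squares mark the brightest probe set of a gene and filled marks an adjusted p under 0.05. On the left the dimmer probe set of Stt3a lies below the brighter one, as does the dimmest of Sec61a1 below its others. On the right those of Alg2 and Sec63 spread over about 1 log2 unit.

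Genes next to this machinery were taken from lists of 59 measured genes in 5 groups, also chosen with earlier results of these data known. In Sar1B:H79G against Sar1B, 12 of the 59 were higher (20.3%) and 4 lower (6.78%), beside 23.9% and 4.35% of the 46 genes and 4.90% and 7.18% of all genes. Against Sar1A 4 were higher (6.78%) and 2 lower (3.39%), beside 15.2% and 0% of the 46 and 1.98% and 2.22% of all genes. The enzymes that supply sugar nucleotides had the largest share of the 5 groups, with 6 of 9 higher (66.7%) and 1 lower (11.1%) than in Sar1B and a median log2 fold change of 0.43. Pmm2, the phosphomannomutase that makes mannose 1-phosphate, read 11.45 and 11.67 in Sar1B:H79G, against 10.63 and 10.53 in Sar1B, 10.53 in Sar1A and 10.66 and 10.64 in control (log2 0.98 ± 0.09 against Sar1B, adjusted p = 0.0043; 1.03 ± 0.11 against Sar1A, adjusted p = 0.013). Gmppa, a regulatory subunit in GDP-mannose synthesis, was higher by 0.66 ± 0.10 (adjusted p = 0.017), and Ugp2, which makes UDP-glucose, was lower (log2 -0.53 ± 0.10, adjusted p = 0.027).

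Of the 20 other targeting and insertion factors, 2 were higher than in Sar1B (10.0%, where the background was 4.90%), Get4 (0.60 ± 0.06, adjusted p = 0.0052), of the route for tail-anchored proteins, and Emc10 (0.35 ± 0.07, adjusted p = 0.034), and 1 was lower, Emc1 (-0.28 ± 0.06, adjusted p = 0.040), both of the membrane protein complex that inserts transmembrane helices. Of 12 further genes, mostly oligosaccharyltransferase subunits and genes of dolichol, 2 were higher (16.7%, beside 4.90% of all genes) and 0 lower. They were Nus1, a subunit of the enzyme that makes the dolichol chain (0.95 ± 0.15, adjusted p = 0.018), and Tmem258, a small transferase subunit (0.59 ± 0.08, adjusted p = 0.012). The 12 also held Prkcsh, the partner subunit of the glucosidase Ganab, which was not called (0.35 ± 0.12, adjusted p = 0.17). Of 15 enzymes that trim and branch N-glycans after transfer, 2 were higher and 2 lower (13.3% each, beside 4.90% and 7.18% of all genes). Higher were Man1b1, a mannosidase (0.61 ± 0.09, adjusted p = 0.014), and B4galt1, a galactosyltransferase (0.66 ± 0.12, adjusted p = 0.028). Among the lower was Mgat4b, a branching enzyme (-0.48 ± 0.10, adjusted p = 0.036). None of the 3 lectin chaperone genes was called against Sar1B or Sar1A.

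How far the counts move with the processing is shown last. Srpra, Srp9, Dad1 and Stt3a were the genes whose call against Sar1B held under every one of the alternatives that could be fitted. The other 9 calls were each lost under 2 or more alternatives, and no fold change that was called turned its sign under any of them. Called at their brightest probe set in none of the 5 comparisons were 18 of the 46, among them Srp14, Sec63, Ssr2, Spcs1, Dpagt1, Ddost, Rpn2 and Ganab, and that they missed the threshold does not show that they were equal.

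**Figure D5:**
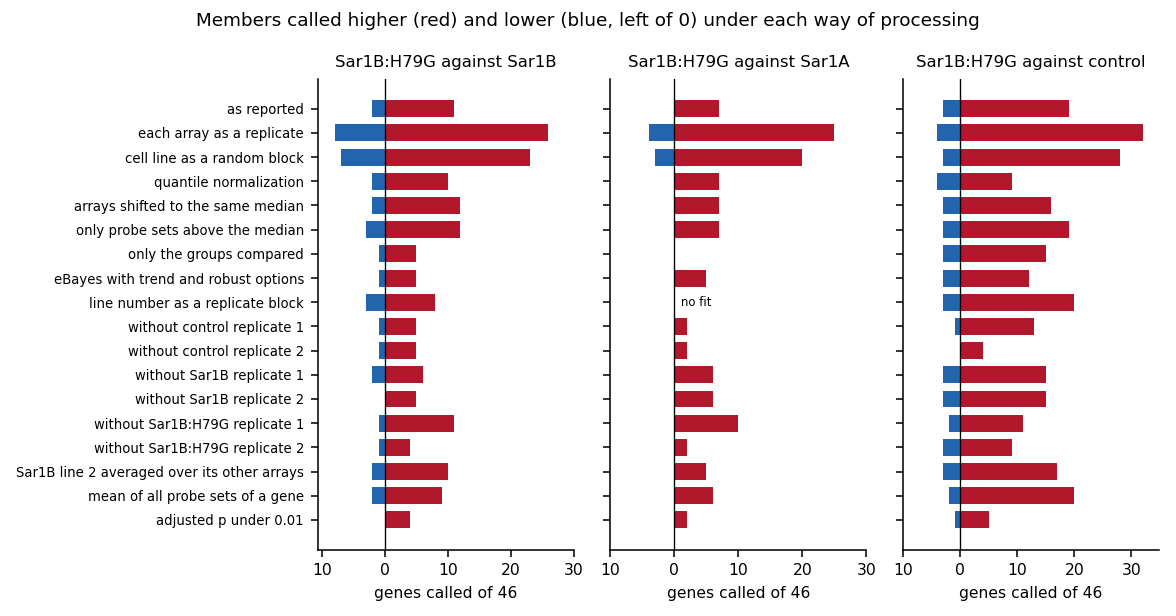
Number of the 46 genes called higher (red, right of 0) and lower (blue, left of 0) in Sar1B:H79G against Sar1B, Sar1A and control, for the analysis as reported (top) and each alternative below it. Taking each array as a replicate raises the count against Sar1B to 26 higher and 8 lower, a threshold of 0.01 leaves 4 higher and 0 lower, and more were called higher than lower in every alternative that made a call.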

How the data were processed

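The authors extracted total RNA, hybridized it to Affymetrix rat arrays and normalized the signals with loess and the MAS5 summary in CARMAweb; versions are not given in the sources used here. The deposited values, taken as log2 from their range (1.64 to 15.4), are normalized signals of each probe set on each array, and no detection calls came with them. No counts stand behind them, so that the number of lines limits the precision. Probe sets were named from the platform annotation, and a gene's value is its probe set with 1 symbol and the highest mean. The 57 array controls were left out. The mean of each line's arrays entered limma 3.58.1 (R 4.3.3), 7 values a probe set, with 3 residual and 3.16 prior degrees of freedom. P-values were adjusted after Benjamini and Hochberg over all 31042 probe sets, and a call is a value under 0.05. For Sar1A, with its 1 line, the spread of the other groups was used, and fold changes are on the log2 scale with their standard errors. The SD between lines had a median of 0.0602 in Sar1B:H79G, 0.0536 in Sar1B and 0.0655 in control.

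The members and lists were chosen with earlier results of these data known. Genes are named by a rule. Per role these are the called genes, up to 4, with the largest change of Sar1B:H79G against Sar1B, and the brightest gene not called. Added are up to 5 genes called in Sar1B or Sar1A against control, and up to 3 called genes of each further list. Stt3b, Dpm1, Srp19, Srp68, Sec61a2 and Dpagt1 were named after their values were seen. Spcs2, Sec11a, Sec11c, Prkcsh and the cell type markers also lie outside the rule. The fit was checked on simulated data. Alternatives took arrays as replicates, lines as a random block (statmod 1.5.0) or line numbers as a replicate block; normalized by quantiles or to equal medians; kept bright probe sets only; fitted only the groups compared, or with the trend and robust options of eBayes; left out each line of the groups with 2; averaged a gene's probe sets; or set the threshold at 0.01. The replicate numbers only mark lines.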

Additional observations from a re-analysis of the deposited data

Results flagged for a closer look

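Among 184 pairs of a gene and a group, 14 (7.61%) held an array far from the others of its group. The cutoff would flag about 1 in 20 for independent, normally distributed values. Arrays nested in lines are not independent and the pairs share arrays, so the 2 rates cannot be compared as a test. Of these 14, 7 were the same array, array 2 of Sar1B line 2, and each time it was the lowest of the 8 Sar1B arrays. It read 10.71 for Srp19 (others 10.98 to 11.17), 11.08 for Sec62 (11.25 to 11.34), 11.92 for Spcs2 (12.07 to 12.14), 9.90 for Alg12 (10.14 to 10.35), 9.53 for Alg13l1 (9.82 to 9.92), 10.31 for Dpagt1 (10.60 to 10.67) and 11.00 for Dad1 (11.19 to 11.36). The counts without this array are given in the report.

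Single arrays of Sar1B:H79G lines were high for Srp54a (12.72, others 12.28 to 12.47) and Ssr3 (13.44, others 12.60 to 12.96), and 1 Sar1B array was high for Sec61b (13.07, others 12.83 to 12.92). Among the 4 arrays of the Sar1A line, array 2 was low for Srp9 (11.04, others 11.23 to 11.27), array 4 was low for Alg2 (10.91, others 11.03 to 11.05), and array 1 was high for Alg5 (11.35, others 11.15 to 11.18) and for Mogs (10.79, others 10.55 to 10.58). The causes were not tested.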

How the results depend on the processing

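As reported, 11 genes were higher and 2 lower in Sar1B:H79G than in Sar1B, 7 and 0 than in Sar1A, and 19 and 3 than in control, 4 and 0 in Sar1B against control, and 1 and 0 in Sar1A against control. In the same order, each array as a replicate gave 26 and 8, 25 and 4, 32 and 4, 18 and 8, and 12 and 7, and the line as a random block gave 23 and 7, 20 and 3, 28 and 3, 16 and 5, and 5 and 3; both treat arrays of a line as further replicates. Quantile normalization gave 9 higher against control for Sar1B:H79G, and 2 higher and 5 lower for Sar1B. The shift to equal medians gave 1 lower for Sar1B against control, and the mean of probe sets 0 higher for Sar1A. Fitting only the groups compared gave 5 and 1 against Sar1B, 0 higher against Sar1A, and 2 higher for Sar1A against control. The trend and robust options gave 5 and 1 against Sar1B and 12 higher against control. A threshold of 0.01 gave 4 and 0 against Sar1B, 2 higher against Sar1A, 5 and 1 against control, and 0 higher for Sar1B and for Sar1A.

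Leaving out each line in turn, the counts ranged from 4 to 11 higher and 0 to 2 lower against Sar1B, from 2 to 10 higher against Sar1A (0 lower throughout), from 4 to 15 higher and 0 to 3 lower against control, from 0 to 6 higher and 0 to 1 lower for Sar1B, and from 0 to 1 higher for Sar1A. With the line number as a replicate block, 8 were higher and 3 lower against Sar1B, 20 and 3 against control, and 4 and 0 for Sar1B; the deviations of same-numbered lines correlated at 0.0752, 0.1917 and 0.0071, and the labels do not pair them. The block could not be fitted for Sar1A, which has 1 line. The causes were not tested.

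With 1 or 2 lines a group and 3 residual degrees of freedom, a missed threshold says little. The files give no detection calls, so that dim probe sets cannot be set against background.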
